A study of Sus scrofa with 12 samples.

Results

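The comparison set liver RNA of Hezuo pigs against liver RNA of Bama pigs when both breeds were held in the cold. It used 6 of the 12 liver libraries of the series and took in all autosomal features. These were 17115 of the 21169 rows of the deposited gene table and 23592 of the 24177 circular RNAs (circRNAs) of the deposited circRNA table. The groups were Hezuo pigs at −15 ± 2 °C and Bama pigs at −15 ± 2 °C, each with 3 pigs sampled on day 15, and, given beside them for the same features, Hezuo pigs and Bama pigs at 23 ± 2 °C, also with 3 pigs each sampled on day 15. The Hezuo is a small breed of cold, high-altitude northwestern China and the Bama is a miniature breed of the warm south. The labels call −15 °C cold stress and 23 °C normal temperature, and the comparison shows how the breeds differ when both are in the cold. Libraries were made from total RNA after removal of ribosomal RNA, so circles without a poly(A) tail were kept. Each sample is labelled as 1 numbered pig of its group, so p-values measure the spread between pigs, and the labels used here give no age, sex or litter.

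The liver meets a cold load by taking up fatty acids released from fat stores, oxidising them in mitochondria and peroxisomes, exporting lipoproteins, and making glucose from lactate, glycerol and amino acids. PPARA is the nuclear receptor that switches on much of the fatty acid oxidation programme, and growth hormone acts through its receptor on hepatocytes to release IGF1 into blood. A circRNA forms when the end of an exon is joined back to the start of an upstream exon or of the same exon, and it is counted from reads across that back-splice junction.

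Gene count totals were 22700378, 24237379 and 27067726 in the Hezuo cold libraries and 20041285, 23898318 and 27762477 in the Bama cold libraries. Back-splice totals were 42562, 40165 and 52194 in Hezuo cold and 39117, 54778 and 55179 in Bama cold. The share of all gene counts on albumin (ALB) was 9.78%, 3.05% and 7.35% in the Hezuo cold libraries and 1.53%, 3.14% and 7.12% in the Bama cold libraries. The Y-linked gene DDX3Y had 1656, 1887 and 2407 counts in the Hezuo cold libraries and 2284, 0 and 3769 counts in the Bama cold libraries, so Bama cold 2 stood apart from the other 5, and the 3 Bama libraries at 23 °C had 2, 3 and 0 counts. Haemoglobin HBB spanned 2210 to 20360 CPM (gene counts scaled to library size) in Hezuo cold and 228 to 3480 CPM in Bama cold. ACTA1 of skeletal muscle was at 0 in all 6 cold libraries, and ADIPOQ of adipocytes did not exceed 0.0719 CPM in them.

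Among 12715 autosomal genes tested with edgeR, 354 differed between Hezuo cold and Bama cold livers at a Benjamini-Hochberg adjusted p below 0.05, here termed called (2.78% of those tested). Of these, 232 were higher in Hezuo (1.82%) and 122 were lower (0.959%), and 2676 genes had an unadjusted p below 0.05. The median log2 fold change was 1.04 over the called genes that were higher and −1.27 over those that were lower, and 203 of the 354 differed at least 2-fold. Values of the 3 Hezuo and 3 Bama libraries stood fully apart for 353 of the 354 called genes, against 25.3% of all genes tested. The exception was MARC1, a mitochondrial reductase gene, with 0.665, 0.259 and 0.286 CPM in Hezuo cold against 87.7, 128 and 0 CPM in Bama cold. The test favours genes whose groups stand apart, so this separation is not separate support for the calls. Counts were scaled by the trimmed mean of M-values (TMM). Scaled to library totals instead, which moved the median log2 fold change of all genes to −0.31, 176 genes were called higher and 1879 lower, so that 8.56% of calls were higher against 65.5% with TMM. All changes below are relative to the bulk of genes as TMM sets it. Each count of called genes in a list below is to be set beside the 2.78% called over all genes tested.

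The count of called genes was 98 without Hezuo cold 1, 141 without Hezuo cold 2, 76 without Hezuo cold 3, 63 without Bama cold 1, 121 without Bama cold 2 and 388 without Bama cold 3, and it was 227 without Hezuo 1 at 23 °C. In all 12 fits without 1 library, 43 of the 354 genes stayed called. Without Bama cold 2, the library with no DDX3Y counts, 106 of the 354 genes stayed called. All 354 kept their direction, which says little, because the groups already stood fully apart for 353 of them. In bulk liver, fewer cells of a type and less RNA per cell cannot be told apart, which applies to each gene below.

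**Figure D1:**
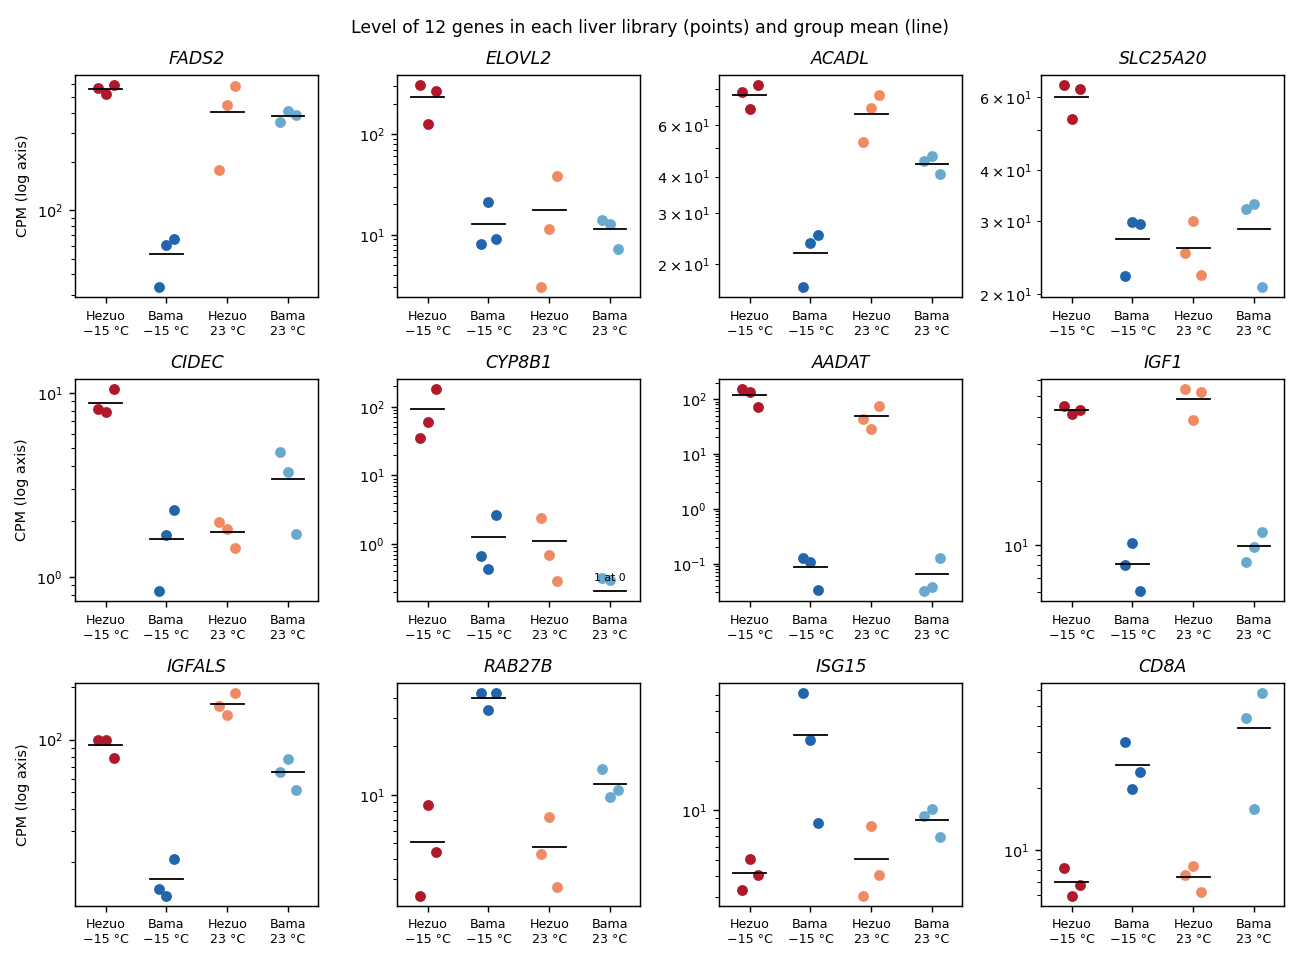
Levels of 12 genes named in the text in CPM on a log axis, one point per liver library and a line at the group mean, for Hezuo and Bama livers at −15 °C and then Hezuo and Bama livers at 23 °C. The 3 Hezuo cold points lie above the 3 Bama cold points for 9 of the genes and below them for RAB27B, ISG15 and CD8A, and AADAT, ACADL, IGF1, IGFALS, RAB27B and CD8A show the same full separation at 23 °C.

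Genes of fatty acid oxidation were higher in Hezuo cold livers. Of 35 listed genes tested, 14 were called (40%, against 2.78% of all genes tested) and all 14 were higher. The median log2 fold change over the 35 genes was 0.62, beside −0.003 over all autosomal genes. Scaled to library totals the list median was 0.33, beside −0.31 over all genes, with 11 called, and on the cold libraries alone 4 were called, all higher in both cases. The summed level of the 35 genes, in CPM and so weighted towards long and abundant transcripts, was 12610, 11760 and 16690 in Hezuo cold against 5823, 7193 and 8724 in Bama cold. At 23 °C it was 8478, 7223 and 8715 in Hezuo against 6730, 7484 and 5817 in Bama, so the 3 Hezuo cold libraries were the highest of the 12. The number of these genes called was 5, 8 and 3 without Hezuo cold 1, 2 or 3 and 2, 5 and 18 without Bama cold 1, 2 or 3, and every call in these 6 fits was higher in Hezuo.

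ACADL, the long-chain acyl-CoA dehydrogenase of the first step of mitochondrial β-oxidation, had 77.7, 68.0 and 82.6 CPM in Hezuo cold and 16.7, 23.6 and 25.2 CPM in Bama cold. The groups did not overlap, with a log2 fold change of 1.80 ± 0.18 (SE) and an edgeR adjusted p of 0.000984. ACAA1, the peroxisomal thiolase, had 382, 311 and 458 CPM in Hezuo cold against 120.4, 169.6 and 168 CPM in Bama cold, a log2 fold change of 1.33 ± 0.20 (edgeR adjusted p = 0.00889). Both genes stayed called without any 1 library. SLC25A20, which carries acylcarnitines across the inner mitochondrial membrane, had 64.4, 53.3 and 62.9 CPM in Hezuo cold and 22.1, 29.8 and 29.5 CPM in Bama cold. Hezuo livers at 23 °C had 25.2, 30.1 and 22.2 CPM and Bama livers at 23 °C had 32.1, 33.1 and 20.8 CPM. Only the Hezuo cold group was high, though the SLC25A20 call (1.15 ± 0.19, edgeR adjusted p = 0.0152) was lost without Hezuo cold 1, Hezuo cold 3 or Bama cold 1 (highest adjusted p 0.0669). ACOT4, a peroxisomal acyl-CoA thioesterase, averaged 82.8 ± 14.8 CPM in Hezuo cold and 37.1 ± 2.72 CPM in Bama cold (SD, n = 3 each). It lost its call without the same 3 libraries (highest adjusted p 0.0711).

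The other called members of the oxidation list were ACSL1, which activates long-chain fatty acids, the mitochondrial enzymes ACADVL, ACADS, HADHA and ACAA2, the peroxisomal proteins EHHADH, DECR2 and ABCD3, and ETFB and ETFDH, which pass electrons from β-oxidation to the respiratory chain. ACSL1 averaged 3356 ± 1979 CPM in Hezuo cold against 742 ± 243 CPM in Bama cold, a log2 fold change of 2.18 ± 0.38, and ABCD3, which imports fatty acyl-CoA into peroxisomes, averaged 334 ± 40.6 CPM in Hezuo cold against 123 ± 38.1 CPM in Bama cold. The log2 fold changes of the remaining 8 ran from 0.66 for ETFDH and ACADS to 1.34 for ACAA2. CPT1A, the rate-limiting carnitine acyltransferase, had 451, 416 and 615 CPM in Hezuo cold and 206, 193 and 120.1 CPM in Bama cold, with a log2 fold change of 1.51 ± 0.38 that missed the threshold (edgeR adjusted p = 0.0557). PPARA itself had 1125, 1044 and 1066 CPM in Hezuo cold and 425, 687 and 414 CPM in Bama cold and also missed it (1.08 ± 0.29, edgeR adjusted p = 0.0638). Among 7 other ways of fitting all libraries or the cold ones, PPARA was called in 1, DESeq2. CPT1A was called in 2 of the 7, DESeq2 and scaling to library totals.

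Of 17 tested genes listed for ketogenesis and PPARA targets, 3 were called, all higher in Hezuo, with a list median log2 fold change of 0.94. The share called was 17.65%, against 2.78% of all genes tested. PLIN5, a lipid droplet coat that tethers droplets to mitochondria, had 30.3, 28.7 and 34.1 CPM in Hezuo cold and 10.8, 12.6 and 15.8 CPM in Bama cold (log2 fold change 1.24 ± 0.17, edgeR adjusted p = 0.00612). CIDEC, a droplet fusion protein, had 8.22, 7.85 and 10.5 CPM in Hezuo cold and 0.834, 1.69 and 2.30 CPM in Bama cold, a log2 fold change of 2.45 ± 0.40 (edgeR adjusted p = 0.0132). For both genes the 3 Hezuo values lay above all 3 Bama values. PLIN5 stayed called without any 1 library. CIDEC lost its call without Hezuo cold 3 (adjusted p 0.05005).

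FADS2, the Δ6 desaturase at the entry to long-chain polyunsaturated fatty acids, had 570.3, 526 and 598 CPM in Hezuo cold and 33.4, 60.8 and 66.4 CPM in Bama cold. At 23 °C FADS2 had 177, 449 and 589 CPM in Hezuo and 352, 412 and 389 CPM in Bama. The Bama cold group was the low one, and the log2 fold change in the cold was 3.399 ± 0.39 (edgeR adjusted p = 0.00324) against 0.08 at 23 °C. ELOVL2, which elongates very long-chain polyunsaturated fatty acids, had 308, 124 and 265 CPM in Hezuo cold and 8.09, 21.2 and 9.12 CPM in Bama cold, and at 23 °C 3.02, 11.3 and 37.97 CPM in Hezuo and 14.0, 12.7 and 7.19 CPM in Bama. For ELOVL2 the Hezuo cold group was the high one, with a log2 fold change of 4.18 ± 0.81 (edgeR adjusted p = 0.0280). FADS2 stayed called without any 1 library, while ELOVL2 lost its call without any 1 cold library except Hezuo cold 2 (highest adjusted p 0.131). FADS1, the Δ5 desaturase, named after its values were seen, had 339.8, 377 and 256 CPM in Hezuo cold against 28.4, 54.0 and 119 CPM in Bama cold and missed the threshold (edgeR adjusted p = 0.0720). It was called in 2 of 7 other ways of fitting, DESeq2 and scaling to library totals.

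The 29 tested genes listed for lipogenesis and triglyceride synthesis included FADS2 and ELOVL2 among 5 called (17.2%, against 2.78% of all genes tested), all higher in Hezuo. The median log2 fold change of the 29 was 0.29, or −0.005 when scaled to library totals. CIDEB, a droplet protein of hepatocytes, had 199.6, 229 and 189 CPM in Hezuo cold and 63.3, 70.9 and 64.6 CPM in Bama cold (log2 fold change 1.63 ± 0.20, edgeR adjusted p = 0.00324), and it stayed called without any 1 library. DGAT1 and DGAT2, which make triglyceride from diacylglycerol, averaged 36.3 ± 11.5 and 281 ± 68.5 CPM in Hezuo cold against 16.1 ± 2.48 and 91.5 ± 45.5 CPM in Bama cold. DGAT1 lost its call without Hezuo cold 1 or 3 or Bama cold 1 or 2 (highest adjusted p 0.109). FASN, the fatty acid synthase, had 248, 276 and 59.4 CPM in Hezuo cold and 276, 373 and 1322 CPM in Bama cold (edgeR adjusted p = 0.204). SCD, the stearoyl-CoA desaturase, had 81.2, 166 and 58.3 CPM in Hezuo cold and 119, 147 and 325 CPM in Bama cold (edgeR adjusted p = 0.404). The SCD groups overlapped, the FASN groups met at 276 CPM, and Bama cold 3 was the highest of the 12 libraries for both genes.

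The genes of this paragraph were named after their values were seen. PLIN3, a droplet coat, had 51.9, 40.05 and 81.2 CPM in Hezuo cold and 18.2, 16.3 and 15.7 CPM in Bama cold (log2 fold change 1.78 ± 0.27). PLIN4, the gene next to PLIN5, averaged 21.6 ± 6.47 CPM in Hezuo cold and 7.30 ± 2.96 CPM in Bama cold. ACAD11, an acyl-CoA dehydrogenase, averaged 204 ± 29.8 CPM in Hezuo cold against 46.5 ± 10.4 CPM in Bama cold, and GPD1, which links glycolysis to glycerol 3-phosphate, averaged 254 ± 45.0 CPM in Hezuo cold against 81.5 ± 34.1 CPM in Bama cold. CRAT, the carnitine acetyltransferase, MLYCD, which removes the CPT1 inhibitor malonyl-CoA, PANK1 of coenzyme A synthesis and ADIPOR2, an adiponectin receptor, were also called higher, with log2 fold changes of 1.005, 0.96, 1.34 and 1.36. PLIN3 and ACAD11 stayed called without any 1 library. The other 6 lost the call without at least 1 cold library, with highest adjusted p values of 0.121 for PLIN4, 0.0674 for GPD1, 0.0541 for CRAT, 0.159 for MLYCD, 0.0839 for PANK1 and 0.0672 for ADIPOR2.

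Of 21 tested genes of bile acid synthesis and transport, 3 were called higher in Hezuo (list median 0.36, or 0.04 scaled to library totals), as were 2 of 23 for apolipoproteins and lipoprotein handling (0.34, or 0.04) and 1 of 24 for cholesterol synthesis and uptake (0.38, or 0.09). The shares called were 14.3%, 8.70% and 4.17%, against 2.78% of all genes tested. Scaled to library totals, the genes called were 4 higher and 1 lower, 2 higher and 2 lower, and none of the cholesterol genes. CYP8B1, the sterol 12α-hydroxylase that sets the share of cholic acid, had 35.0, 60.6 and 183 CPM in Hezuo cold and 0.667, 0.431 and 2.66 CPM in Bama cold. At 23 °C it had 2.37, 0.680 and 0.287 CPM in Hezuo and 0.314, 0.297 and 0 CPM in Bama. The 3 Hezuo cold livers stood above the other 9, with a log2 fold change of 6.17 ± 0.95 in the cold (edgeR adjusted p = 0.0133). The call was lost without Bama cold 1 (adjusted p 0.0781). CYP7A1, the rate-limiting enzyme of bile acid synthesis, had 6.94, 139.9 and 3.80 CPM in Hezuo cold and 64.2, 33.6 and 62.8 CPM in Bama cold, so its groups overlapped (edgeR adjusted p = 0.974). AKR1D1, the 5β-reductase, had 1033, 998 and 1004 CPM in Hezuo cold and 401, 601 and 563 CPM in Bama cold (0.96 ± 0.19, edgeR adjusted p = 0.0280), and SCP2, the sterol carrier protein, averaged 686 ± 112 CPM in Hezuo cold against 339.5 ± 88.0 CPM in Bama cold. MTTP, which loads lipid onto apolipoprotein B, averaged 794 ± 107 CPM in Hezuo cold and 379 ± 53.3 CPM in Bama cold, LCAT, which esterifies cholesterol in HDL, averaged 153 ± 26.0 CPM in Hezuo cold against 74.8 ± 3.87 CPM in Bama cold, and PMVK of the mevalonate pathway averaged 32.0 ± 7.63 CPM in Hezuo cold against 18.1 ± 1.45 CPM in Bama cold. Each of these 5 lost its call without Bama cold 1, Bama cold 2 or Hezuo cold 3 (highest adjusted p 0.133, for PMVK).

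In central carbon and amino acid metabolism, 4.35% and 6.06% of the listed genes were called, against 2.78% of all genes tested. Of 46 genes of gluconeogenesis, glycolysis and glycogen, 2 were called higher (list median 0.23, or −0.07 scaled to library totals), and of 66 genes of amino acid breakdown and the urea cycle, 4 were called higher (0.20, or −0.11). PC, pyruvate carboxylase, had 789, 778 and 1028 CPM in Hezuo cold and 322, 287 and 286 CPM in Bama cold (log2 fold change 1.54 ± 0.32, edgeR adjusted p = 0.0299). FBP1, fructose-1,6-bisphosphatase, averaged 817 ± 131 CPM in Hezuo cold against 356 ± 95.8 CPM in Bama cold. PCK1 overlapped between the groups, with 4595, 1845 and 3311 CPM in Hezuo cold and 1391, 2649 and 1685 CPM in Bama cold. PC lost its call without any 1 cold library (highest adjusted p 0.0970) and FBP1 without any but Bama cold 2 (0.121).

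AADAT, which transaminates α-aminoadipate of lysine breakdown and kynurenine of tryptophan breakdown, had the largest positive change among all genes named. It had 153, 135 and 71.3 CPM in Hezuo cold and 0.125, 0.108 and 0.0328 CPM in Bama cold, and 44.2, 28.8 and 73.5 CPM in Hezuo at 23 °C against 0.0314, 0.0371 and 0.126 CPM in Bama at 23 °C. All 6 Bama livers were near 0 and all 6 Hezuo livers were not, so the log2 fold change was 10.38 ± 0.60 in the cold (edgeR adjusted p = 2.77e-05) and 9.42 at 23 °C. SARDH, sarcosine dehydrogenase, averaged 322 ± 55.0 CPM in Hezuo cold and 176 ± 29.7 CPM in Bama cold, GRHPR of glyoxylate metabolism averaged 157 ± 32.4 CPM in Hezuo cold against 80.2 ± 16.5 CPM in Bama cold, and GSTZ1 of tyrosine breakdown averaged 187 ± 8.03 CPM in Hezuo cold against 117 ± 27.3 CPM in Bama cold. These 3 lost their calls without at least 4 single libraries each, with highest adjusted p values of 0.138, 0.0886 and 0.134. AGMAT and HAO1, named after their values were seen, were also higher, with 357 ± 49.4 and 102 ± 12.1 CPM in Hezuo cold against 127 ± 27.8 and 57.1 ± 10.5 CPM in Bama cold. AADAT and AGMAT stayed called without any 1 library, and HAO1 lost its call without Hezuo cold 1 or 3 or Bama cold 1 or 3 (highest adjusted p 0.121).

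Both subunits of the mitochondrial pyruvate carrier were called higher in Hezuo cold. MPC2 had 64.8, 61.9 and 77.9 CPM in Hezuo cold and 37.3, 38.8 and 33.8 CPM in Bama cold (log2 fold change 0.90 ± 0.13, edgeR adjusted p = 0.00889), and MPC1 had 151, 126 and 195 CPM in Hezuo cold against 82.9, 96.6 and 105 CPM in Bama cold (0.73 ± 0.17, edgeR adjusted p = 0.0467). At 23 °C MPC2 had 44.3, 47.6 and 39.8 CPM in Hezuo and 48.9, 58.0 and 46.1 CPM in Bama. The citrate carrier SLC25A1 averaged 178 ± 36.0 CPM in Hezuo cold and 75.3 ± 22.4 CPM in Bama cold and was the last of 3 called genes among 44 mitochondrial carriers and biogenesis genes (list median 0.15, or −0.16 scaled to library totals). MPC2 stayed called without any 1 library, while MPC1 and SLC25A1 each lost the call in at least 9 of 12 such fits (highest adjusted p 0.163 and 0.125). None of 69 nuclear respiratory chain genes was called with edgeR, against 2.78% of all genes tested (list median 0.16, or −0.16 scaled to library totals). The unadjusted edgeR p of 10 lay below 0.05, and 2 were called by DESeq2, both as higher.

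**Figure D2:**
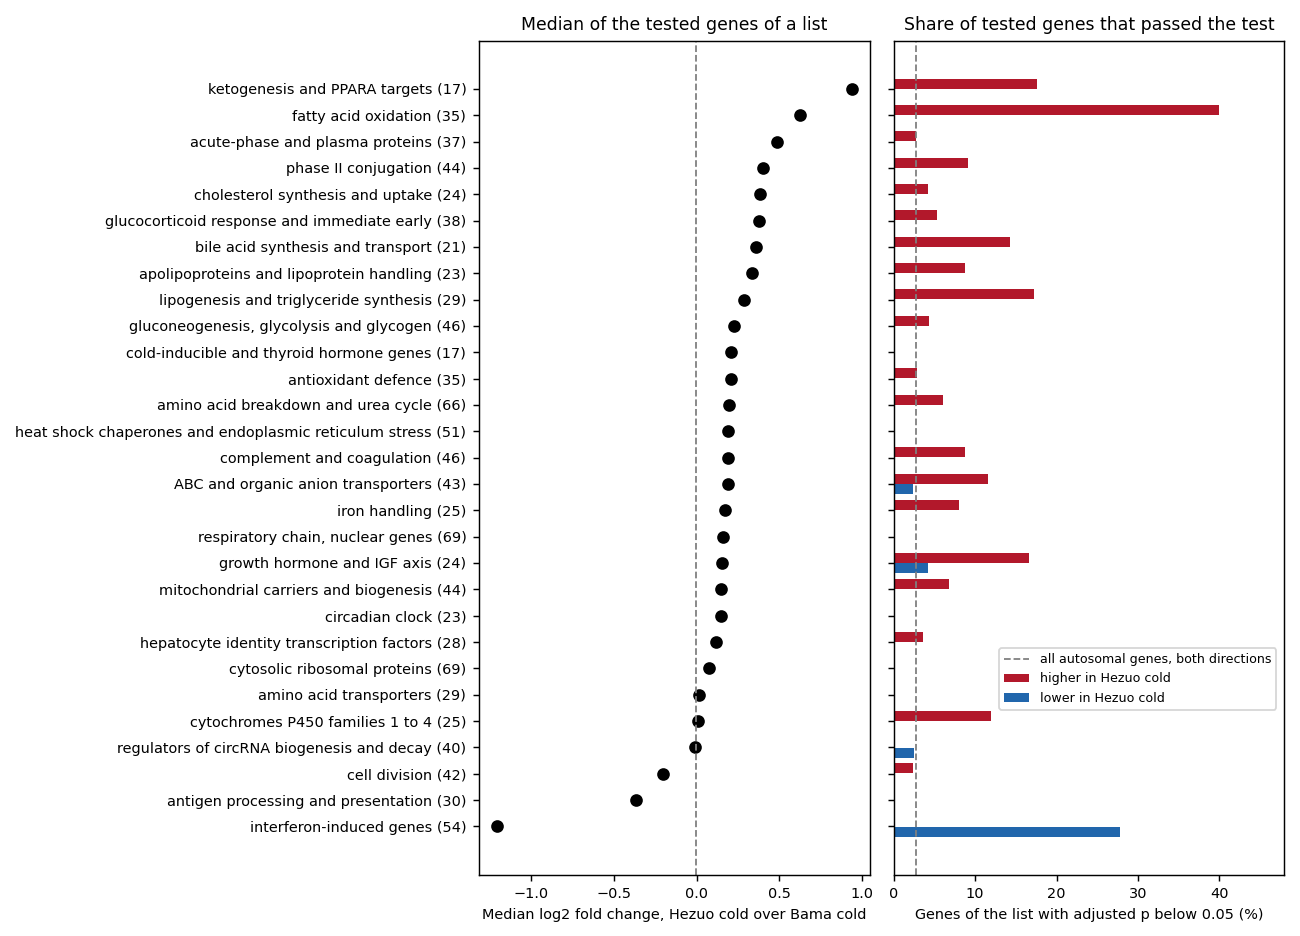
Left, the median log2 fold change, Hezuo cold over Bama cold, of the tested genes of each of 29 gene lists (number tested in brackets), with a dashed line at the median of all autosomal genes. Right, the percentage of each list called higher (red) or lower (blue) in Hezuo cold, with a dashed line at 2.78%, the share called over all autosomal genes. Fatty acid oxidation has the largest share called higher (14 of 35) and interferon-induced genes the largest share called lower (15 of 54).

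In the growth hormone and IGF axis, 4 of 24 tested genes were called higher in Hezuo and 1 lower (list median 0.15, or −0.16 scaled to library totals). The share called was 20.8%, against 2.78% of all genes tested. IGF1, the circulating growth factor, had 45.2, 41.1 and 43.3 CPM in Hezuo cold and 8.002, 10.2 and 6.03 CPM in Bama cold, and 54.3, 38.6 and 52.8 CPM in Hezuo at 23 °C against 8.27, 9.72 and 11.5 CPM in Bama at 23 °C. The breeds did not overlap at either temperature, with log2 fold changes of 2.42 ± 0.21 in the cold (edgeR adjusted p = 0.000359) and 2.30 at 23 °C. IGFALS, the acid-labile subunit that holds IGF1 in a ternary complex in blood, had 100.1, 99.2 and 78.8 CPM in Hezuo cold and 14.0, 12.9 and 20.9 CPM in Bama cold (2.54 ± 0.22, edgeR adjusted p = 0.000359). Its levels at 23 °C were 155, 138 and 185 CPM in Hezuo and 65.7, 77.9 and 51.8 CPM in Bama, and the breed gap was called there too. GHR, the growth hormone receptor, had 246, 208 and 237 CPM in Hezuo cold and 78.7, 95.9 and 73.0 CPM in Bama cold (1.48 ± 0.24, edgeR adjusted p = 0.0133). IGFBP3, the main serum carrier of IGF1, averaged 144 ± 11.5 CPM in Hezuo cold against 81.3 ± 25.8 CPM in Bama cold. Its call lay close to the threshold (0.82 ± 0.19, edgeR adjusted p = 0.0467), and its results without 1 library are not given here. IGFBP2 went the other way, with 87.0, 78.8 and 105 CPM in Hezuo cold and 153, 196 and 267 CPM in Bama cold (−1.19 ± 0.23, edgeR adjusted p = 0.0262). IGF1 and IGFALS stayed called without any 1 library. GHR lost the call without Bama cold 1 (adjusted p 0.0630) and IGFBP2 without Bama cold 2 or any 1 of the 3 Hezuo cold libraries (highest adjusted p 0.0803).

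Among xenobiotic genes, 3 of 25 cytochromes P450 and their partners were called higher (list median 0.01, or −0.27 scaled to library totals), 4 of 44 phase II genes were higher (0.40, or 0.11), and 5 of 43 ABC and organic anion transporters were higher with 1 lower (0.19, or −0.11). The shares called were 12%, 9.09% and 13.95%, against 2.78% of all genes tested. CYP2A19, the pig enzyme of coumarin and skatole oxidation, had 3484, 2176 and 2935 CPM in Hezuo cold and 150.5, 645 and 672 CPM in Bama cold, a log2 fold change of 2.55 ± 0.45 (edgeR adjusted p = 0.0211). CYP2C33 had 5721, 6443 and 7191 CPM in Hezuo cold and 2225, 1816 and 2221 CPM in Bama cold (1.63 ± 0.32, edgeR adjusted p = 0.0272). Both belong to families of near-identical genes among which reads can be split, so these levels are uncertain. The glutathione transferase gene GSTA4, also of such a family, had 52.4, 94.9 and 49.3 CPM in Hezuo cold against 16.9, 16.2 and 23.7 CPM in Bama cold, and SULT1B1, a sulfotransferase of phenols and thyroid hormones, had 15.0, 14.0 and 19.5 CPM in Hezuo cold and 0.5001, 2.08 and 1.71 CPM in Bama cold (3.48 ± 0.70, edgeR adjusted p = 0.0295). MGST2, MGST3 and CYB5R3 were called with log2 fold changes of 1.27, 1.19 and 0.99. SLCO1B3, a bile acid and drug uptake carrier, averaged 1115 ± 141 CPM in Hezuo cold against 487 ± 192 CPM in Bama cold. ABCC6 and ABCB1 were called higher as well, and SLCO3A1 was lower, with 1.56 ± 0.420 CPM in Hezuo cold and 5.14 ± 1.58 CPM in Bama cold. GSTA4 stayed called without any 1 library, and CYP2A19 lost the call without Hezuo cold 1 or 3 (highest adjusted p 0.0593). CYP2C33, SULT1B1, MGST2, MGST3, CYB5R3, SLCO1B3 and SLCO3A1 lost it without at least 3 single cold libraries each, with highest adjusted p values from 0.0678 for SLCO3A1 to 0.133 for CYB5R3.

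The metallothionein genes MT1D and MT1A, neighbours that bind zinc and copper, were both higher in Hezuo. MT1A had 3639.8, 4252 and 4323 CPM in Hezuo cold and 2145, 2356 and 1396 CPM in Bama cold (log2 fold change 1.05 ± 0.20, edgeR adjusted p = 0.0250), and 4845, 4755 and 4005 CPM in Hezuo at 23 °C against 1991, 1926 and 2072 CPM in Bama at 23 °C. MT1D, named after its values were seen, averaged 11795 ± 3205 CPM in Hezuo cold and 4872 ± 1536 CPM in Bama cold. The copies are close enough to share reads, so the split between them is uncertain, and MT1A lost its call without Hezuo cold 2, Hezuo cold 3 or Bama cold 1 (highest adjusted p 0.0754). MT1A was the single called gene of 35 for antioxidant defence (list median 0.21, or −0.10 scaled to library totals) and, with HSD11B1, which regenerates cortisol, was 1 of 2 called among 38 genes of glucocorticoid response and immediate early response (0.38, or 0.06). The shares called were 2.86% and 5.26%, against 2.78% of all genes tested, so the antioxidant list was close to the share of all genes. HSD11B1 averaged 267 ± 47.3 CPM in Hezuo cold and 139 ± 29.9 CPM in Bama cold and lost its call without Hezuo cold 1, Hezuo cold 3 or Bama cold 1 (highest adjusted p 0.0953). MT1D lost its call without 6 single libraries (highest adjusted p 0.125).

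Of 46 complement and coagulation genes, 4 were called higher (list median 0.19, or −0.13 scaled to library totals), and of 37 acute-phase and plasma protein genes, TF alone was called (0.49, or 0.18). The shares called were 8.70% and 2.70%, against 2.78% of all genes tested, so the acute-phase list was close to the share of all genes. PROC, the zymogen of activated protein C, had 1187, 1016 and 1087 CPM in Hezuo cold and 407, 519 and 472 CPM in Bama cold (log2 fold change 1.23 ± 0.15, edgeR adjusted p = 0.00324), and at 23 °C 1396, 1432 and 1287 CPM in Hezuo and 1136, 1226 and 1199 CPM in Bama. The Bama cold group was the low one. F7, F12 and CPB2 of coagulation and fibrinolysis control were called with log2 fold changes of 0.78, 0.66 and 0.69. VKORC1 and VKORC1L1, the vitamin K epoxide reductases that γ-carboxylation of several clotting proteins needs, were singled out after their values were seen and averaged 121 ± 9.15 and 121 ± 12.4 CPM in Hezuo cold against 58.7 ± 1.82 and 57.7 ± 7.60 CPM in Bama cold. TF, transferrin, averaged 819 ± 178 CPM in Hezuo cold against 386 ± 108 CPM in Bama cold and, with FECH of haem synthesis, was called among 25 iron handling genes (0.17, or −0.14). ALB varied within groups too widely to be called, at 105522, 31905 and 81170.5 CPM in Hezuo cold and 12765, 26929.8 and 64779 CPM in Bama cold (edgeR adjusted p = 0.272). PROC, VKORC1 and VKORC1L1 stayed called without any 1 library, while F7, F12, CPB2, TF and FECH lost the call without Hezuo cold 1, Hezuo cold 3 or Bama cold 1 (highest adjusted p 0.151, for F12). The hepatocyte markers other than ALB, beside all of the hepatocyte genes above, summed to 62750, 70400 and 80140 CPM in Hezuo cold and 49290, 48370 and 57020 CPM in Bama cold, higher in each Hezuo library, and their part in the results was not tested.

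Another 8 genes, named after their values were seen, were called higher in Hezuo cold livers. They were not called at 23 °C, where only 39 of the 354 genes called in the cold were called. They were picked without a list, so no share of such genes called is given. SEC24D, a cargo-binding subunit of the COPII coat, had 95.6, 117 and 121 CPM in Hezuo cold and 48.3, 45.0 and 55.5 CPM in Bama cold, but 48.02, 64.3 and 38.9 CPM in Hezuo and 123, 83.3 and 61.6 CPM in Bama at 23 °C. SEC23A, its coat partner, averaged 168 ± 29.7 CPM in Hezuo cold and 67.3 ± 15.6 CPM in Bama cold. LMAN1, a cargo receptor for clotting factors V and VIII, averaged 369 ± 23.9 CPM in Hezuo cold against 187 ± 24.8 CPM in Bama cold, and the KDEL receptors KDELR2 and KDELR3 had log2 fold changes of 0.78 and 1.73. ARFGAP3, GOLGA5 and TRAM2 had log2 fold changes of 1.15, 0.89 and 0.89. All 8 lost the call without at least 4 single libraries, with highest adjusted p values from 0.0817 for SEC23A to 0.151 for KDELR2. None of 51 listed genes of heat shock chaperones and endoplasmic reticulum stress was called with edgeR, against 2.78% of all genes tested (list median 0.19, or −0.10 scaled to library totals). The unadjusted edgeR p of 6 lay below 0.05, and 1 was called by DESeq2, as higher.

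Interferon-induced genes were lower in Hezuo cold livers than in Bama cold livers. Of 54 tested, 15 were called (27.8%, against 2.78% of all genes tested) and all 15 were lower. The list's median log2 fold change was −1.21, and 48 of the 54 were negative. The Hezuo and Bama cold values did not overlap for 37 of the 54 (68.5%), against 25.3% of all genes. Their summed level was 2456, 2931 and 2583 CPM in Hezuo cold and 6989, 4184 and 3327 CPM in Bama cold, and 2434, 2900 and 2406 CPM in Hezuo at 23 °C against 4380, 3155 and 4015 CPM in Bama at 23 °C. Bama cold 1 was the highest library of all, and the 6 Hezuo libraries were the 6 lowest.

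ISG15, the interferon-induced ubiquitin-like modifier, had 3.33, 5.09 and 4.08 CPM in Hezuo cold and 51.2, 26.5 and 8.43 CPM in Bama cold, a log2 fold change of −2.78 ± 0.57 (edgeR adjusted p = 0.0319). IFI44 had 12.6, 19.2 and 14.2 CPM in Hezuo cold and 74.8, 46.6 and 31.4 CPM in Bama cold (−1.73 ± 0.27, edgeR adjusted p = 0.0121), and its neighbour IFI44L averaged 19.2 ± 5.33 CPM in Hezuo cold against 50.2 ± 19.1 CPM in Bama cold. EIF2AK2, the double-stranded RNA kinase PKR, had 50.8, 77.1 and 60.4 CPM in Hezuo cold and 203, 129 and 136 CPM in Bama cold (−1.31 ± 0.21, edgeR adjusted p = 0.0121). The groups did not overlap for any of these genes. IRF9, the DNA-binding part of the interferon-stimulated transcription complex ISGF3, had no count in any of the 6 Hezuo libraries and 1.54, 1.26 and 0.721 CPM in Bama cold, at least 26.9-fold lower in Hezuo cold when set against a floor of 3 counts over the group. DHX58, an RNA sensor of the RIG-I family, had 0, 1.03 and 1.22 CPM in Hezuo cold and 38.01, 16.0 and 5.94 CPM in Bama cold. SAMD9, ZBP1, RSAD2, CMPK2, MX1, IRF7, DTX3L, IFITM1 and IFITM3 completed the calls, with log2 fold changes from −1.20 for DTX3L to −2.52 for RSAD2. IFITM1 and IFITM3 are near-identical copies, so reads can be split between them. IDO1, which degrades tryptophan and is induced by interferon, had 0.1901, 0.259 and 0.490 CPM in Hezuo cold and 4.79, 1.15 and 2.23 CPM in Bama cold (−3.08 ± 0.72, edgeR adjusted p = 0.0467).

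The number of interferon-induced genes called was 2, 4 and 0 without Hezuo cold 1, 2 or 3 and 2, 4 and 31 without Bama cold 1, 2 or 3; DESeq2 called 35 on all libraries, and the list median was −0.78 without Bama cold 1. Fitted on the 6 cold libraries alone, 1 of the 54 was called and the median was −1.21. Among the fits without 1 library, IFI44 and EIF2AK2 lost the call in that without Hezuo cold 3 (adjusted p 0.0528 for each), and neither was called on the cold libraries alone. SAMD9, IFI44L, ISG15, IRF9, DHX58 and IDO1 lost it without 3 to 9 single libraries each, with highest adjusted p values from 0.0721 for SAMD9 to 0.151 for IDO1. Antigen processing and presentation genes had a list median of −0.37 with 0 of 30 called with edgeR, although 12 had an unadjusted p below 0.05, 11 of them lower in Hezuo, and DESeq2 called 3 lower.

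Of 29 markers of T, NK and B cells tested, 3 were called (10.3%, against 2.78% of all genes tested). All were lower in Hezuo cold (list median −0.80). CD8A, the cytotoxic T cell co-receptor, had 8.17, 5.99 and 6.77 CPM in Hezuo cold and 33.6, 19.9 and 23.8 CPM in Bama cold (log2 fold change −1.88 ± 0.39, edgeR adjusted p = 0.0317), and 7.51, 8.35 and 6.22 CPM in Hezuo at 23 °C against 43.8, 15.9 and 57.9 CPM in Bama at 23 °C. The breeds were apart at both temperatures. CD5 averaged 2.16 ± 0.476 CPM in Hezuo cold and 9.26 ± 2.24 CPM in Bama cold. The summed level of the 29 markers was 269.7, 309 and 283 CPM in Hezuo cold and 592, 393 and 408 CPM in Bama cold, so it moved in the same direction as the interferon-induced genes and its part in that result was not tested. Of single markers, CD4 had 12.2, 29.3 and 18.9 CPM in Hezuo cold and 36.3, 43.9 and 41.1 CPM in Bama cold, whereas the T cell receptor chain CD3E overlapped, with 5.37, 23.1 and 19.3 CPM in Hezuo cold and 18.96, 9.52 and 11.4 CPM in Bama cold. The edgeR count was 0, 1 and 0 without Hezuo cold 1, 2 or 3 and 0, 1 and 2 without Bama cold 1, 2 or 3, DESeq2 called 10 on all libraries, and the list median was −0.55 without Bama cold 1. THEMIS and CD226 of T and NK cells, and the scavenger receptor OLR1, named after their values were seen, were also called lower, with log2 fold changes of −1.61, −1.92 and −1.78. OLR1 lost its call without Hezuo cold 3 or Bama cold 1, and THEMIS and CD226 without Bama cold 1 or any 1 Hezuo cold library (highest adjusted p 0.0666 for OLR1, 0.105 for THEMIS and 0.0853 for CD226).

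**Figure D3:**
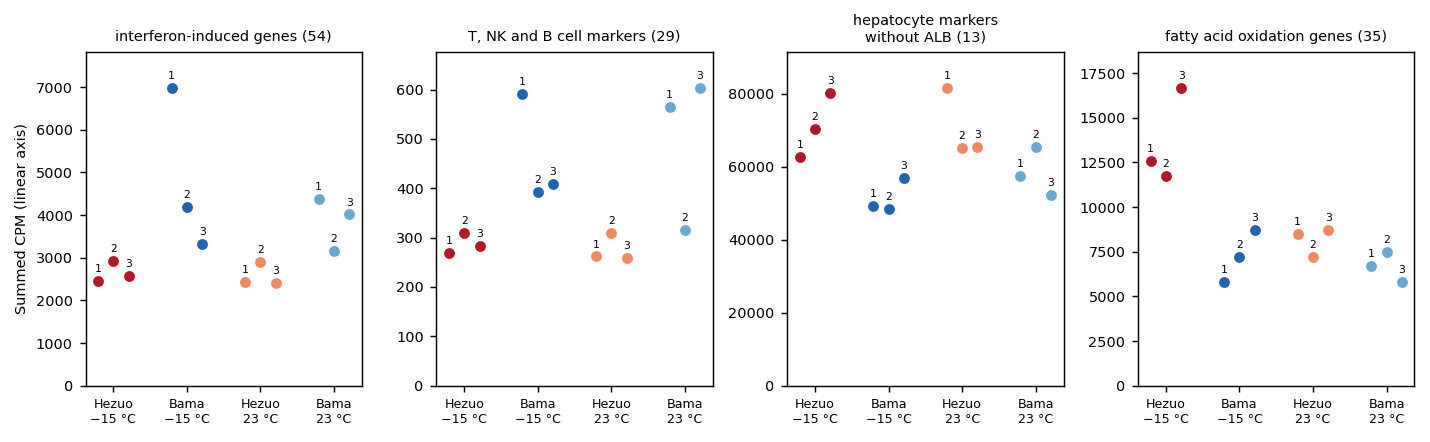
Summed CPM (linear axis from 0) of 4 gene groups in each liver library, with the pig number beside each point, for Hezuo and Bama at −15 °C and then Hezuo and Bama at 23 °C. Interferon-induced genes and T, NK and B cell markers are lower in every Hezuo cold library than in every Bama cold library, and hepatocyte markers without ALB and fatty acid oxidation genes are higher.

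Markers of other liver cells were mostly not called, as holds for all genes tested, of which 2.78% were called. STAB2 and KDR, called among 16 sinusoidal endothelial markers (list median 0.12, or −0.19 scaled to library totals), averaged 622 ± 29.5 and 393 ± 50.2 CPM in Hezuo cold against 293 ± 82.3 and 256 ± 24.8 CPM in Bama cold. Of the 16, 9 had a positive and 7 a negative log2 fold change, and 3 of the negative ones had an unadjusted p below 0.05. LYVE1, a hyaluronan receptor of sinusoidal endothelium, had 57.5, 62.8 and 46.7 CPM in Hezuo cold and 126, 87.5 and 102 CPM in Bama cold, the opposite order to STAB2. LRAT, the retinol-esterifying enzyme of stellate cells, was 1 of 23 stellate and matrix markers called (0.05, or −0.27), with 12.97 ± 5.93 CPM in Hezuo cold against 4.60 ± 1.42 CPM in Bama cold, and TF was the single called gene of 14 hepatocyte marker rows (0.57, or 0.26). With edgeR, none was called of 16 Kupffer and macrophage markers (−0.27, with 0 at an unadjusted p below 0.05), 11 neutrophil and erythroid markers (1.26, with 3), 13 cholangiocyte markers (0.18, or −0.13, with 2) and 4 adipocyte and muscle markers (−0.26, with 1), and DESeq2 called 0, 0, 2 and 0 of them. The summed neutrophil and erythroid markers, led by HBB, ran from 2249 to 20500 CPM in Hezuo cold and from 260 to 3542 CPM in Bama cold. STAB2, KDR and LRAT lost their calls without Hezuo cold 1, Hezuo cold 3 or Bama cold 1 (highest adjusted p 0.0721, 0.160 and 0.127).

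Several lists tied to cold exposure or to general cell function held no called gene. Of all 12715 genes tested with edgeR, 2.78% were called and 2676 had an unadjusted p below 0.05. Lists this short can thus hold no called gene without differing from the rest. With edgeR, 0 of 17 cold-inducible and thyroid hormone genes (list median 0.21, or −0.11 scaled to library totals), 0 of 23 clock genes (0.15, or −0.16), 0 of 69 cytosolic ribosomal protein genes (0.08, or −0.24) and 0 of 29 amino acid transporters (0.01, or −0.29) were called, against 2, 2, 0 and 7 with an unadjusted p below 0.05 and 2, 1, 0 and 5 called by DESeq2. CIRBP, the cold-inducible RNA-binding protein, had 54.4, 57.9 and 44.4 CPM in Hezuo cold and 48.1, 67.3 and 49.9 CPM in Bama cold (log2 fold change −0.08 ± 0.21, edgeR adjusted p = 0.872). UCP2, PPARGC1A, THRB, DIO1, HSPA1L and FGF21 were not called either, with log2 fold changes of −0.23 ± 0.35, 0.05 ± 0.46, 0.04 ± 0.29, 0.65 ± 0.31, 0.29 ± 0.36 and 2.31 ± 1.43. RBM3, which is X-linked and so outside the autosomal set, had a log2 fold change of 0.45 ± 0.33. Cell division genes had a median of −0.20 with only PRC1 of 42 called (higher, 9.30 ± 1.47 CPM in Hezuo cold against 2.83 ± 0.0437 CPM in Bama cold). Hepatocyte identity factors had a median of 0.12 (−0.19 scaled to library totals) with only ATF5 of 28 called, at 490.1, 426 and 502 CPM in Hezuo cold and 74.0, 157 and 204 CPM in Bama cold. PRC1 and ATF5 lost their calls without any 1 cold library, except ATF5 without Bama cold 3 (highest adjusted p 0.148 and 0.117).

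The remaining genes with the largest changes came from no single list. Higher in Hezuo cold were GFRA2, a GDNF family receptor (1.62 ± 1.62 CPM in Hezuo cold against 0.0646 ± 0.0524 CPM in Bama cold), MUC13, a membrane mucin (21.1 ± 1.01 CPM in Hezuo cold against 3.19 ± 2.53 CPM in Bama cold), BMP8B, a bone morphogenetic protein (8.93 ± 2.65 CPM in Hezuo cold against 1.41 ± 0.223 CPM in Bama cold), FRMD1 (23.6 ± 11.4 CPM in Hezuo cold against 2.84 ± 0.215 CPM in Bama cold) and DHRS7, a short-chain dehydrogenase (38.3 ± 14.1 CPM in Hezuo cold against 6.61 ± 0.261 CPM in Bama cold). MUC13 and DHRS7 were called at 23 °C as well. BMP8B at 23 °C had 1.02 CPM on average in Hezuo and 4.74 CPM in Bama, the other order. Lower in Hezuo cold were RAB27B, a Rab GTPase of vesicle secretion, with 2.38, 8.62 and 4.41 CPM in Hezuo cold against 42.6, 33.8 and 42.8 CPM in Bama cold (−2.95 ± 0.44, edgeR adjusted p = 0.00951), and PDZK1IP1, a small membrane protein, with 0.475, 0.302 and 0.857 CPM in Hezuo cold against 5.71, 30.3 and 13.7 CPM in Bama cold (−4.90 ± 0.71, edgeR adjusted p = 0.00893). SLC34A2, a sodium phosphate cotransporter, had 0, 0.0862 and 0 CPM in Hezuo cold against 6.21, 2.95 and 11.8 CPM in Bama cold. STK32B, TMEM61, TANGO2, RXFP1, the relaxin receptor, and PHYHIPL were also lower, with log2 fold changes of −3.25, −4.48, −2.78, −2.76 and −2.55. ESR1, the oestrogen receptor, and GTF2H5, a subunit of transcription factor TFIIH, named after their values were seen, were apart at both temperatures. ESR1 had 13.8, 13.4 and 15.0 CPM in Hezuo cold and 3.38, 4.31 and 5.08 CPM in Bama cold, and GTF2H5 had 1.52, 1.77 and 1.71 CPM in Hezuo cold against 5.04, 5.61 and 5.34 CPM in Bama cold. DHRS7, RAB27B, PDZK1IP1, ESR1 and GTF2H5 stayed called without any 1 library. The others lost the call without at least 2 of the cold libraries, with highest adjusted p values from 0.0549 for STK32B to 0.163 for RXFP1.

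The breed comparison at 23 °C rested on 6 other pigs and shared no library with that in the cold, although all 12 libraries shared 1 estimate of the spread. It called 127 autosomal genes (0.999%), 78 higher (0.613%) and 49 lower (0.385%) in Hezuo, and 39 genes were called at both temperatures, all in the same direction, which is 11.02% of the genes called in the cold and 30.7% of those called at 23 °C. Of the 354 genes called in the cold, 312 (88.1%) had the same sign at 23 °C, against 67.3% of all genes tested, and 194 had an unadjusted p below 0.05 there. Over the genes that were higher in Hezuo cold, the median log2 fold change at 23 °C was 0.38, and over those that were lower it was −0.72. The fatty acid oxidation list had a median of 0.27 and the interferon-induced list a median of −0.77 at 23 °C, with no member of either called there. AADAT, IGF1, IGFALS, GHR, AGMAT, ESR1, CD8A, THEMIS, IDO1, PDZK1IP1 and GTF2H5 were among the 39. All 3 Bama libraries at 23 °C had 0 to 3 DDX3Y counts and all 3 Hezuo libraries had 1331 to 1844, so at 23 °C breed and DDX3Y level cannot be told apart.

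The test of the difference between the breed gaps at the 2 temperatures called no autosomal gene with edgeR, with 1011 genes at an unadjusted p below 0.05, and 155 of the 354 were among them. The smallest edgeR adjusted p was 0.0700, for FADS2 and PLIN3, whose log2 differences were 3.32 and 2.52. Next among named genes were CIDEC, MPC2 and SEC24D, with log2 differences of 3.41, 1.11 and 1.99 and edgeR adjusted p values of 0.0798, 0.0873 and 0.0920. No gene above is therefore shown by edgeR to have a larger breed gap in the cold than at 23 °C. In Bama, DDX3Y had 2284, 0 and 3769 counts in the cold and 2, 3 and 0 at 23 °C. Temperature and DDX3Y level thus partly went together in Bama, and the part of each in this difference was not tested. Fits without 1 library called 0 to 22 genes, with 22 without Bama 3 at 23 °C.

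**Figure D4:**
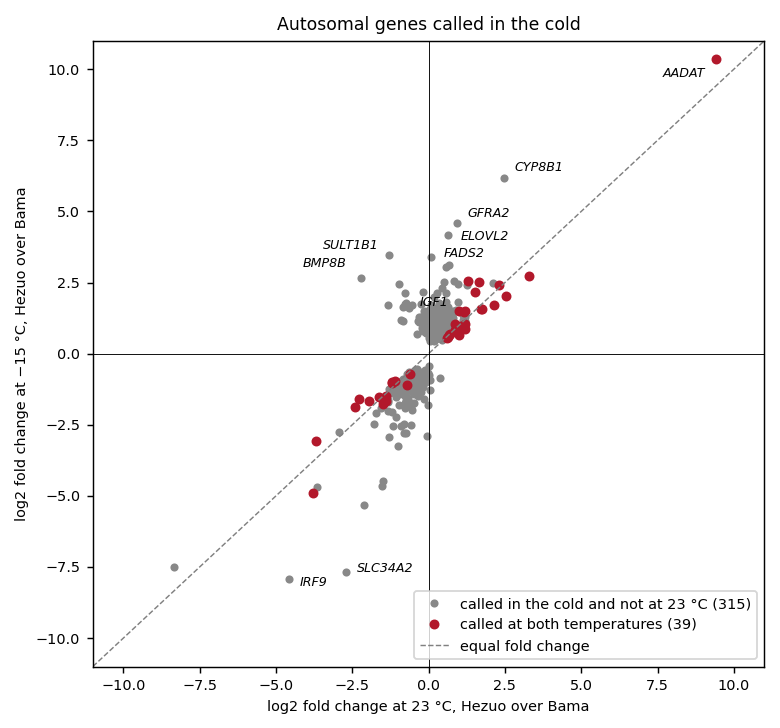
Each of the 354 autosomal genes called in the cold, by its log2 fold change (Hezuo over Bama) at 23 °C on the horizontal axis and at −15 °C on the vertical axis. Red marks the 39 genes called at both temperatures, grey marks the other 315, and the dashed line marks equal fold changes; AADAT and IGF1 lie near that line and FADS2, ELOVL2, SULT1B1 and BMP8B lie well above it.

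Called genes lay in 3 runs of at least 3 consecutive tested genes of a chromosome. PGGHG, IFITM1, IFITM3 and an unnamed gene formed the longest, with 1 higher and 3 lower in Hezuo cold. MIGA2, DOLPP1 and CRAT were all higher, and so were SLC44A3, F3, the tissue factor gene, and ABCD3. A further 12 runs held 2 genes each, among them IFI44 with IFI44L, RSAD2 with CMPK2, MT1D with MT1A and PLIN5 with PLIN4. By autosome the share of tested genes called ran from 0.820% on chromosome 16 to 3.59% on chromosome 8.

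Of 8833 autosomal circRNAs tested, 38 differed between Hezuo cold and Bama cold livers with edgeR (0.43%), 19 higher and 19 lower (0.215% each), and 755 had an unadjusted p below 0.05. The median circRNA had 11 back-splice counts over the 6 cold libraries together. In simulated counts the circRNA fit recovered 10.6% of changes of log2 3, so a circRNA that was not called may still differ. Hezuo and Bama cold counts stood fully apart for 32 of the 38, against 11.1% of all circRNAs tested, which the test itself favours. Among the 38, 29 were built of annotated exons (87.5% of those tested were), 7 of exon and intron (5.90% of those tested), 1 of a single exon (3.15%) and 1 antisense to its host (0.759%). Relative to the level of the host gene, 48 of 8599 circRNAs were called (0.558%), 18 higher (0.209%) and 30 lower (0.349%). The error of the host level was not in this model, so p-values relative to the host can be too small. Of the 37 called circRNAs with a tested host gene, 30 were also called relative to it, and 5 had a host that was itself called, in each case in the same direction (MT1A, PHYHIPL, KRIT1, CARF and SLCO1B3). Genome coordinates below are those of the deposited table, whose build is not given in the sources used here.

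The widest circRNA gap was at the metallothionein locus. A circle antisense to MT1A, at chr6:18661906-18667566 and with a deposited spliced length of 5661 bases, had 86, 89 and 77 counts in Hezuo cold and 0 in each of the 3 Bama cold libraries. At 23 °C it had 71, 138 and 83 counts in Hezuo and again 0 in each Bama library. All 6 Hezuo livers had it and no Bama library had a count, and in the cold it was at least 104-fold higher in Hezuo against a floor of 3 counts over the group (edgeR adjusted p = 2.75e-40). A second antisense circle over the same locus, at chr6:18657197-18673289, had 0 counts in all 6 Hezuo libraries against 8, 0 and 7 in Bama cold and 0, 26 and 0 in Bama at 23 °C. It was not called by itself (edgeR adjusted p = 0.147) but was called lower in Hezuo cold relative to its host (edgeR adjusted p = 0.0139). MT1A itself had a log2 fold change of 1.05, and the first circle was also called relative to its host. The libraries keep strand information per the labels, but the strand setting of the counting is not given in the sources used here, so the antisense assignment rests on the deposited annotation. The metallothionein copies are close enough to share reads, so junction reads of both circles can be placed on more than 1 copy.

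Other circRNAs were likewise found in 1 breed at both temperatures. An exonic circle of CYP2C34, a cytochrome P450 gene, at chr14:106294756-106306036 had 10, 8 and 19 counts in Hezuo cold and 0 in each Bama cold library, and 13, 10 and 11 counts in Hezuo at 23 °C against 0 in each Bama library there. An exon-intron circle of SPATA9 at chr2:102234626-102264179 had 4, 11 and 10 counts in Hezuo cold and 1, 13 and 4 in Hezuo at 23 °C, with 0 in all 6 Bama libraries. In the other direction, a circle at chr7:20720396-20737650 with no host symbol had 0 counts in all 6 Hezuo libraries against 49, 20 and 17 counts in Bama cold and 52, 14 and 64 in Bama at 23 °C. These were at least 14.7-fold higher, at least 10.3-fold higher and at least 33.6-fold lower in Hezuo cold. Of all 38 called circles, 12 had no count in 1 breed in the cold, 7 in Hezuo and 5 in Bama. A GSTA2 circle at chr7:46548359-46560801 came close, with 24, 23 and 17 counts in Hezuo cold and 0, 2 and 0 in Bama cold. CYP2C34 and GSTA2 belong to families of similar genes, where junction reads can be placed on more than 1 copy. The MT1A, CYP2C34, GSTA2 and chr7:20720396-20737650 circles stayed called without any 1 library, and the SPATA9 circle lost its call without Hezuo cold 2 or 3 or any 1 Bama cold library (highest adjusted p 0.115).

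Circles of CP, RAB5A and IL6ST were seen in Bama cold and not in Hezuo cold. The CP circle, from the ceruloplasmin gene at chr13:89423754-89457044, had 0, 0 and 0 counts in Hezuo cold and 10, 11 and 31 in Bama cold, and its host gene had a log2 fold change of 0.09. At 23 °C it had 1, 2 and 4 counts in Hezuo and 0, 6 and 13 in Bama. The single-exon RAB5A circle, from an endosomal GTPase gene, had 0 counts in each Hezuo cold library and 8, 5 and 23 in Bama cold, and the IL6ST circle, from the shared receptor chain gp130, had 0 in each Hezuo cold library against 7, 11 and 6 in Bama cold. These were at least 18.02-fold, 12.6-fold and 8.55-fold lower in Hezuo cold (edgeR adjusted p = 4.21e-05, 0.000706 and 0.0318). RAB5A lost its call without Bama cold 3 (adjusted p 0.0832), and IL6ST lost it without 5 of the 6 single cold libraries and with DESeq2 (highest adjusted p 0.218).

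More abundant circles differed by level. The SOX5 circle at chr5:49813301-49859235, from a transcription factor gene, had 31, 7 and 12 counts in Hezuo cold and 40, 80 and 149 in Bama cold (log2 fold change −2.27 ± 0.36, edgeR adjusted p = 5.62e-07), and no other of the 10 SOX5 circles tested was called. The PPP2R1B circle at chr9:39494895-39504434, from a scaffold subunit gene of protein phosphatase 2A, had 38, 34 and 56 counts in Hezuo cold and 4, 12 and 8 in Bama cold (2.52 ± 0.43, edgeR adjusted p = 5.98e-06). The CNTRL circle at chr1:261142021-261155614, from a centriole protein gene, had 35, 43 and 12 counts in Hezuo cold and 7, 5 and 3 in Bama cold (2.68 ± 0.46, edgeR adjusted p = 6.71e-06). All 3 stayed called without any 1 library and relative to their hosts, whose own log2 fold changes were −0.35, 0.18 and −0.11. ATP11A, a phospholipid flippase gene, gave a circle at chr11:78349882-78356609 with 8, 4 and 10 counts in Hezuo cold and 49, 27 and 41 in Bama cold, while its host leaned the other way (0.55). The HSD17B13 circle at chr8:131520826-131528391, from a lipid droplet enzyme gene, had 2, 7 and 10 counts in Hezuo cold against 20, 35 and 44 in Bama cold, and lost its call without Hezuo cold 1 or Bama cold 3 (highest adjusted p 0.144).

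NDFIP2, an adaptor of NEDD4 ubiquitin ligases, and CYP3A39, a cytochrome P450 gene, each had 2 called circles. The NDFIP2 circles at chr11:51531489-51547197 and chr11:51531489-51554792 share their start. The shorter had 31, 26 and 12 counts in Hezuo cold and 59, 68 and 179 in Bama cold (log2 fold change −1.98 ± 0.34), and the longer had 56, 47 and 46 in Hezuo cold against 61, 112 and 302 in Bama cold (−1.50 ± 0.30). Both were highest in Bama cold 3, and both lost their calls without that library (adjusted p 0.115 and 0.712), while the host gene had a log2 fold change of −0.01. The CYP3A39 circle at chr3:6707771-6770048 had 37, 15 and 32 counts in Hezuo cold and 1, 5 and 1 in Bama cold (3.63 ± 0.57). The second, at chr3:6746550-6758714, had 1, 41 and 50 counts in Hezuo cold and 1, 1 and 0 in Bama cold, with Hezuo cold 1 overlapping the Bama group. At 23 °C it had 0, 1 and 0 counts in Hezuo and 5, 28 and 7 in Bama, the opposite order. Another CYP3A39 circle, at chr3:6641324-6645357, had 29, 17 and 9 counts in Hezuo cold and 43, 39 and 43 in Bama cold. It was not called by itself (edgeR adjusted p = 0.229) but was called lower in Hezuo cold relative to its host (log2 fold change −1.33 ± 0.36, edgeR adjusted p = 0.0460). CYP3A genes are close copies, so junction reads can be placed on more than 1 of them.

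**Figure D5:**
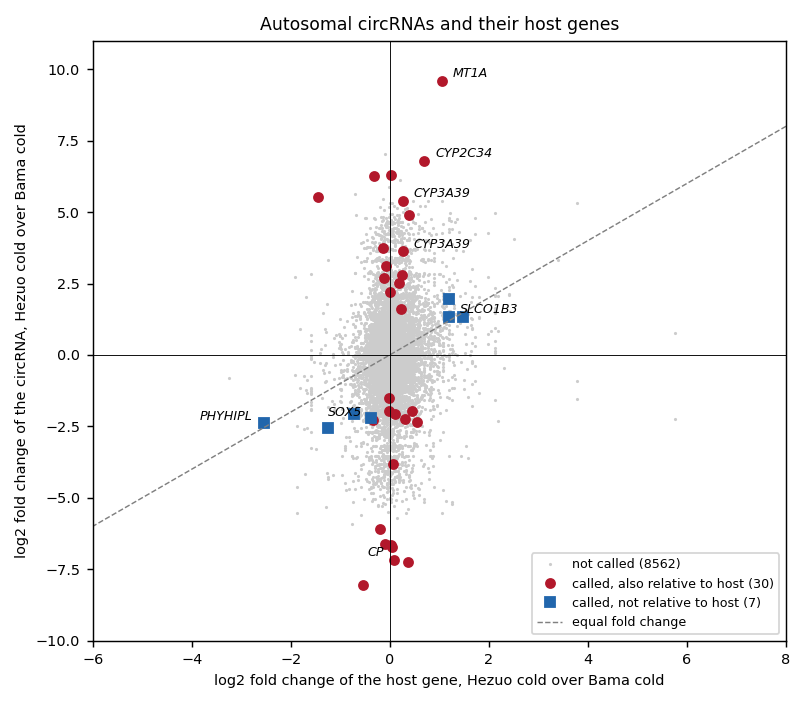
Autosomal circRNAs with a tested host gene, by the log2 fold change of the host (horizontal axis) and of the circle (vertical axis), Hezuo cold over Bama cold. Red circles mark the 30 called also relative to the host, blue squares the 7 called without that, grey points the 8562 not called, and the dashed line equal fold changes.

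Most of the remaining called circles had hosts that were not called. CTTNBP2, USP24, ITGA9, WASF3, PECR, TLCD4, C8A and MOXD1 circles were higher in Hezuo cold and WRN, KRIT1, CCDC30, MIPOL1 and C12orf29 circles lower, and of these hosts KRIT1 alone was called. The CTTNBP2 circle, with 2, 1 and 24 counts in Hezuo cold against 0 in each Bama cold library, rested mostly on Hezuo cold 3, and a circle with no host symbol at chr12:39366927-39391822, with 0, 51 and 2 counts in Hezuo cold against 0, 0 and 1 in Bama cold, rested mostly on Hezuo cold 2. Across the 38 called circles, 32 had the same sign at 23 °C, against 54.7% of all circles tested, and 13 were called there, which is 34.2% of the circles called in the cold and 38.2% of the 34 called at 23 °C (0.385%), 18 higher (0.204%) and 16 lower (0.181%). The difference between the breed gaps at the 2 temperatures was called for 6 circles (0.0679%), 2 of them more positive in the cold (0.0226%) and 4 more negative (0.0453%). In all 12 fits without 1 library, 17 of the 38 stayed called. Among 40 listed regulators of circRNA biogenesis and decay (list median −0.01), 2.5% were called, close to the 2.78% of all genes tested. ADAR, an RNA editing enzyme that is also interferon-induced, was the single called gene, at 47.0, 54.2 and 47.5 CPM in Hezuo cold and 118, 86.6 and 76.2 CPM in Bama cold (log2 fold change −0.91 ± 0.17, edgeR adjusted p = 0.0222). It lost the call without Hezuo cold 1, Hezuo cold 3 or Bama cold 1 (highest adjusted p 0.0739). QKI, a splicing factor that promotes circle formation, had 132, 124 and 117 CPM in Hezuo cold and 161, 161 and 143 CPM in Bama cold and was not called (edgeR adjusted p = 0.169).

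Back-splice totals, expressed as CPM of each library's gene count total, were 1875, 1657 and 1928 in Hezuo cold and 1952, 2292 and 1988 in Bama cold, averaging 1820 ± 144 in Hezuo cold against 2077 ± 187 in Bama cold (SD, n = 3 each). Each Hezuo library was below each Bama library, and the exact permutation test, taken on both sides, gave p = 0.1, the smallest that 3 against 3 libraries allow, with an adjusted p of 0.2 over the 2 per-library measures. Without the 10 most abundant genes in the denominator the difference was −196 with an exact p of 0.4. With all libraries thinned at random to 39117 back-splice reads, the smallest cold total, 8540 ± 395 circRNAs were detected in Hezuo cold and 8578 ± 266 in Bama cold, a difference of −38.1 that was within the spread between pigs (exact permutation p = 1, n = 3 each).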

How the data were processed

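Liver RNA of 12 pigs was analysed, 3 in each of 4 groups of breed and temperature. The gene table holds estimated counts deposited by the authors, of which 9.48% of the values above 0 are fractional, and these were rounded. The circRNA table holds back-splice counts deposited by the authors. FPKM and RPM values, also deposited by the authors in these tables, were not used in tests. Reads were trimmed with fastp, per the submitters' processing notes, and the sources used here do not give the aligner, counter, circRNA caller or build. Genes were placed on chromosomes through RefSeq by identifier (17360 rows), RefSeq by symbol (369) or the circRNA table (127), and 3314 rows had no chromosome.

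The rounded counts were tested with edgeR 4.0.16 in R 4.3.3 by a quasi-likelihood F test with robust dispersion, TMM scaling and 1 mean per group over all 12 libraries, leaving 8 residual degrees of freedom. Genes passed a count minimum of 10 and a total of 15, circRNAs a count of 2 in 3 libraries and a total of 10. A circRNA's change relative to its host used the host's CPM, with a prior count of 2, as an offset. The error of the host CPM was not in that model. P-values were adjusted by Benjamini-Hochberg over all features fitted, and features below 0.05 are called. CPM are TMM-scaled, and SE is the log2 fold change divided by the root of F. Alternatives were DESeq2 1.42.0, other scalings and filters, the cold libraries alone, a replicate block and leaving out each library; library totals for genes and gene library sizes for circRNAs were chosen after seeing the data. In simulated counts the gene fit recovered 29.9%, 80.6% and 90.9% of changes of log2 1, 2 and 3, with 11 false calls. The circRNA fit recovered 1.5%, 1.5% and 10.6% of such changes, with 0 false calls. A feature that was not called is therefore not shown to be unchanged, least of all a circRNA.

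Replicates of a cold group correlated at 0.973 to 0.982 and differed beyond counting noise (chi-square per degree of freedom 88.75 to 205.7). This does not show that they were separate pigs, which rests on the labels. Members and the 37 gene lists were chosen with earlier results of these data known. Named genes were the 12 largest called changes each way with a mean of at least 1 CPM and no overlap, up to 4 called members of each list with the smallest adjusted p, a fixed set of genes of cold, lipid and growth biology and runs of at least 3 called neighbours. Named circRNAs were the 8 largest called changes each way with a mean of at least 20 CPM of back-splice counts and no overlap, hosts with several called circles, and the circles of SOX5, PPP2R1B, CNTRL and NDFIP2. Genes outside this rule are marked in the text. Some results that the rule names are not reported here. PCR copies without molecular identifiers are not independent molecules, so a floor of 3 counts over a group, used for folds against groups at 0, covers counting error only.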

Additional observations from a re-analysis of the deposited data

Results flagged for a closer look

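For 6 autosomal circRNAs the breed gap in the cold differed from that at 23 °C by edgeR's test of that difference, given here as log2 values (cold minus 23 °C). The NDFIP2 circle at chr11:51531489-51547197 had −2.301, with 31, 26 and 12 counts in Hezuo cold and 59, 68 and 179 in Bama cold, and 26, 30 and 22 counts in Hezuo and 25, 34 and 21 in Bama at 23 °C. The NDFIP2 circle at chr11:51531489-51540684 had −1.546, with 136, 145 and 199 counts in Hezuo cold and 141, 286 and 408 in Bama cold, and 150, 144 and 122 in Hezuo and 92, 95 and 105 in Bama at 23 °C. Both had an edgeR adjusted p of 0.00697.

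The SLC38A1 circle at chr5:77049090-77058522 had −2.784, with 7, 16 and 17 counts in Hezuo cold and 42, 30 and 34 in Bama cold, and 27, 15 and 12 in Hezuo and 7, 6 and 13 in Bama at 23 °C. A circle with no host symbol at chr17:5052491-5077828 had −5.24, with 1, 2 and 5 counts in Hezuo cold and 9, 8 and 14 in Bama cold, and 6, 9 and 13 in Hezuo and 1, 2 and 0 in Bama at 23 °C. Both had an edgeR adjusted p of 0.0314. In the cold every Hezuo library lay below every Bama library for both circles, and at 23 °C every Hezuo library lay above every Bama library for the circle without a symbol. For SLC38A1 at 23 °C the raw counts crossed (12 in 1 Hezuo library against 13 in 1 Bama library), while scaled to depth it had 601, 363 and 283 CPM of back-splice counts in Hezuo and 122, 126 and 201 CPM in Bama, with no overlap.

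The CYP2C33 circle at chr14:111253510-111282469 had 5.059, with 2, 10 and 14 counts in Hezuo cold and 7, 21 and 0 in Bama cold, and 0, 1 and 0 in Hezuo and 24, 25 and 7 in Bama at 23 °C. The CYP3A39 circle at chr3:6746550-6758714 had 9.993, the largest of the 6, with 1, 41 and 50 counts in Hezuo cold and 1, 1 and 0 in Bama cold, and 0, 1 and 0 in Hezuo and 5, 28 and 7 in Bama at 23 °C. Both circles overlapped between the breeds in the cold. Leaving out 1 library gave 1 to 7 such circRNAs. In Bama, DDX3Y had 2284, 0 and 3769 counts in the cold and 2, 3 and 0 at 23 °C. Its level thus partly went with temperature there, and its part in these 6 differences was not tested.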

How the results depend on the processing

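Of the 354 genes called with edgeR, all were also called by DESeq2, which called 1150. The count was 110 on the cold libraries alone, 2055 with library totals, 203 with a further limit of a 2-fold change, and 63 to 402 without 1 library. It was 357 with RLE size factors, 330 with no filter and 366 without robust dispersion. For circRNAs DESeq2 called 25 against 38, and leaving out 1 library gave 30 to 48. Relative to the host the count was 29 without Bama cold 2 and 31 without Bama cold 3 (range 29 to 38, against 48 with all). The difference between temperatures was called for 0 to 22 genes and 1 to 7 circRNAs without 1 library, and the gap at 23 °C for 6 to 550 genes, against 127, and 20 to 36 circRNAs, against 34.

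Same-numbered pigs of the cold groups did not deviate together (r of −0.266, −0.0466 and −0.0355, against −0.115 to 0.178 for pigs of different numbers). The main fit therefore did not pair the samples, but so few correlations cannot exclude a batch shared by number. With a replicate block 246 genes and 30 circRNAs were called in the cold and 29 genes at 23 °C. The difference in detected circRNAs after thinning turned to 21.583 when at least 2 reads were asked for, and ranged from −233.17 to 161.73 without 1 library, turning positive without Hezuo cold 2 (161.73) or Bama cold 2 (102.37). The total of back-splice reads stayed lower in Hezuo, by −319.71 to −149.56. Among 109 named genes, 58 lost the call on the cold libraries alone and 14 with library totals. The causes were not tested.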

Other observations

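By the deposited KEGG annotation, among pathways with at least 15 tested autosomal genes, those with the largest shares of called genes were Fatty acid degradation, with 9 of 34 tested genes called, and Biosynthesis of unsaturated fatty acids, with 5 of 21, all higher in Hezuo cold. The shares were 26.5% and 23.8%, against 2.78% of all genes tested, and the pathways were picked by that share. The pathways share members with each other and with the lists above, so they are not a separate result. ISG12(A), an interferon-induced gene outside the list used and named after its value was seen, averaged 23.05 CPM in Hezuo cold and 62.65 CPM in Bama cold, with a log2 fold change of −1.44 and an edgeR adjusted p of 0.0102, and stayed called without any 1 library.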
